A study of Rattus norvegicus with 18 samples.

Results

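The miR-23a and miR-23b clusters were followed through 8 entries, taken by name from a deposited table of 909 entries that held 763 known rat miRNAs and 146 predicted candidates. They were 5 main strands (rno-miR-23a-3p, rno-miR-27a-3p, rno-miR-23b-3p, rno-miR-27b-3p and rno-miR-24-3p), the passenger strands rno-miR-24-1-5p and rno-miR-24-2-5p, and rno-miR-3074, whose hairpin lies opposite that of miR-24-1. The small RNA came from the gastrocnemius, a calf muscle, of male Brown Norway rats, with 1 library per rat and 6 rats in each of 3 groups. Young AL rats were 6 months old and fed ad libitum (replicates 1 to 6), old AL rats were 28 months old and fed ad libitum (replicates 7 to 12), and old CR rats were 28 months old and received 55% of the ad libitum intake from 2 months of age (replicates 13 to 18). All rats lived alone after maturation and ate the same diet, and whole muscle was ground, so each library mixes fibres, vessels, nerve and blood.

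A miRNA cluster is transcribed as one long RNA from which several hairpins are cut. Each hairpin gives a duplex, of which the main strand is loaded into the silencing complex and pairs with target transcripts through its seed, while most of the passenger strand is degraded. The miR-23a cluster (miR-23a, miR-27a and miR-24-2) stands by itself and the miR-23b cluster (miR-23b, miR-27b and miR-24-1) lies inside the aminopeptidase gene Aopep. In muscle, miR-23a is known as a repressor of the atrophy ligases atrogin-1 and MuRF1, miR-27 as a repressor of Pax3 and myostatin, and miR-24 for its part in myoblast differentiation.

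The mature sequences are shown because they set which members can be told apart by their reads. They were taken from RefSeq (GRCr8), are written 5′ to 3′, and carry the seed (bases 2 to 8) in capitals.
rno-miR-23a-3p: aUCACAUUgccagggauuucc
rno-miR-23b-3p: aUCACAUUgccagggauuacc
rno-miR-27a-3p: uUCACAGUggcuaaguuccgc
rno-miR-27b-3p: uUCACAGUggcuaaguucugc
rno-miR-24-3p: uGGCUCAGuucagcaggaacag
rno-miR-24-1-5p: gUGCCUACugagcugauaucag
rno-miR-24-2-5p: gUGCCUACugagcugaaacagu
rno-miR-3074: gAUAUCAGcucaguaggcaccg

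Counted from the 5′ end, the 2 miR-23 strands differ by U19A and the 2 miR-27 strands by C19U, so each pair shares its seed and is separated by 1 base. rno-miR-24-3p is the same molecule from both clusters (Mir24-2 on chromosome 19 and Mir24-1 on chromosome 17), and its counts cannot be divided between them. The passenger strands of miR-24 are cluster-specific: they share their first 16 bases and the seed and differ after that. rno-miR-3074 has another seed, and its reverse complement holds a run of 20 bases of rno-miR-24-1-5p (gugccuacugagcugauauc), since Mir3074 is annotated on the strand opposite to Mir24-1. Each of the 5 seeds was carried by no other mature rat miRNA in the RefSeq table than the members shown.

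Library totals ran from 34940346 to 83110905 counts. The highest totals exceed the mapped reads that the paper lists for any library, so reads may have been counted for more than 1 entry. The shares that follow are therefore shares of counts. The 4 entries of the miR-1 family, the most abundant miRNA of striated muscle, took 60.7 to 86.8% of all counts. The members took 0.498 to 1.73%, or 2.71 to 4.46% of the counts left without that family. Levels are in CPM (counts scaled to 1 M per library, with TMM factors applied), and these factors ran from 0.656 to 2.08. The largest factor, the smallest miR-1 share and the largest share of member counts all belonged to 1 library, old AL replicate 7, so the members' log2 fold changes, the ratio with the lowest p and the correlations between members are also given without it, while the other ratios, the best correlated miRNAs and the marker lists are given with it. The muscle miRNA rno-miR-1-3p averaged 93146, 79558 and 110907 CPM in young AL, old AL and old CR rats. The comparisons were old AL with young AL, old CR with young AL, and old CR with old AL rats. Of the 5 striated muscle markers edgeR and DESeq2 called 0 in each comparison, with 0 at an unadjusted p under 0.05 from edgeR. Over all entries edgeR called 3.28, 9.32 and 0.272% in that order, and DESeq2 11.5, 14.9 and 2.58%. At an unadjusted p under 0.05 from edgeR were 23.4, 25.5 and 12.0% of all entries. A count of 0 among 5 does not show that their levels were alike.

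The members differed in level by a factor that far exceeded any difference between groups. Over the 18 libraries rno-miR-27b-3p averaged 3790.3 CPM, rank 20 of the 763 known miRNAs, and held 53.2% of all member counts. rno-miR-24-3p followed at 1257 CPM (rank 31), then rno-miR-27a-3p at 716 CPM (rank 40), rno-miR-23b-3p at 639 CPM (rank 42) and rno-miR-23a-3p at 517 CPM (rank 49). The passenger strands lay lower, with rno-miR-24-2-5p at 110.4 CPM (rank 78) and rno-miR-24-1-5p at 11.9 CPM (rank 164), and rno-miR-3074 stood at 11.3 CPM (rank 166). The ranges of rno-miR-27a-3p, rno-miR-23b-3p and rno-miR-23a-3p overlapped between libraries, as did those of rno-miR-24-1-5p and rno-miR-3074, so these neighbours in the order were not separated by their spread. The members are 21 or 22 bases long, and their counts were set side by side without a length correction and without a calibration of how well each sequence enters a library.

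**Figure D1:**
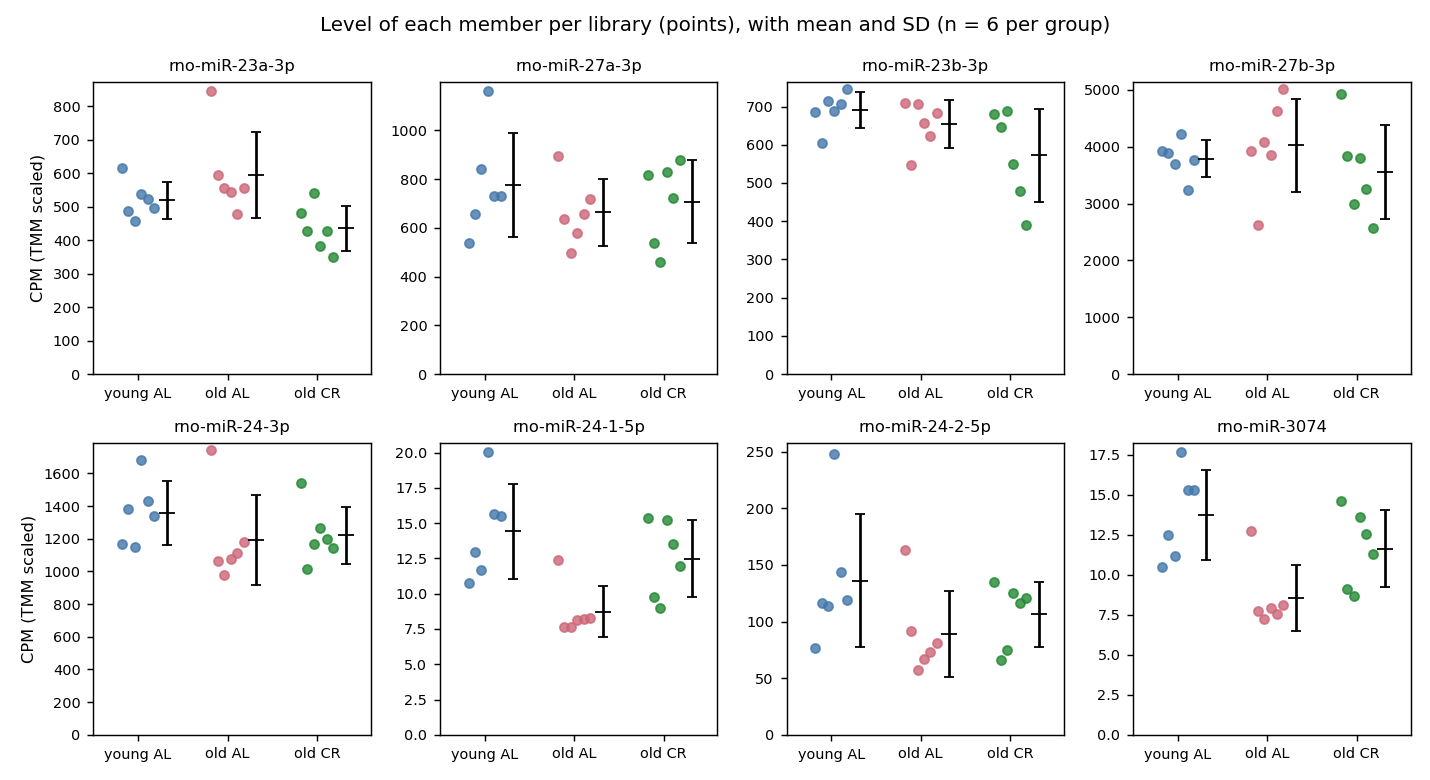
Level of each of the 8 entries in CPM (vertical axes, from 0, TMM scaled) in young AL, old AL and old CR rats (horizontal axis), with 1 point per library and the mean and SD of 6 libraries beside it. For rno-miR-24-1-5p and rno-miR-3074, 5 of the 6 old AL points lie below all young AL points, and the sixth is replicate 7 at 12.4 and 12.7 CPM.

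The comparison of old AL with young AL rats addressed ageing on an unrestricted diet. A member was called when edgeR's quasi-likelihood test gave an adjusted p of at most 0.05 over all entries and a fold change of at least 1.5. With age, rno-miR-24-1-5p and rno-miR-3074 fell, and the other 6 members were not called. Of the 732 entries tested 3.28% were called, so 2 of 8 members is above that background, although the 2 entries have nearly the same counts and are not independent. DESeq2 called the same 2 members, with 11.5% of all entries called. No member was free of overlap between the groups, against 3.55% of all entries.

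rno-miR-24-1-5p, the 5′ passenger strand of the miR-23b cluster's miR-24 hairpin, ran from 10.8 to 20.0 CPM in young AL rats (median 14.2) and from 7.63 to 12.4 CPM in old AL rats (median 8.18). Of the 6 old AL libraries, 5 lay below every young AL library, and replicate 7 lay inside the young range. The mean fell from 14.4 ± 3.38 to 8.73 ± 1.83 CPM (SD, n = 6 each), or by -0.73 in log2 fold change (standard error, SE, 0.171, edgeR adjusted p = 0.0376). In this muscle, fewer cells that hold the strand and less of it per cell cannot be told apart.

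rno-miR-3074, from the opposite strand of the same locus, ran from 10.5 to 17.7 CPM in young AL rats (median 13.9) and from 7.23 to 12.7 CPM in old AL rats (median 7.82). Again 5 of the 6 old AL libraries lay below every young AL library. Its log2 fold change was -0.69 (SE 0.170, edgeR adjusted p = 0.0471). Without replicate 7 both declines were larger, at -0.86 for rno-miR-24-1-5p (edgeR adjusted p = 0.0231) and -0.84 for rno-miR-3074 (edgeR adjusted p = 0.0188). Both calls were lost when any 1 of replicates 2 to 6 or 8 to 12 was left out, with adjusted p of up to 0.0943 and 0.114 from edgeR and log2 fold changes of -0.64 or lower and -0.63 or lower. They were also lost with RLE scaling (adjusted p = 0.0698 and 0.0727 from edgeR) and with scaling by library totals alone (0.557 and 0.660), where the log2 fold changes were -0.52 and -0.46 beside a median of 0.23 over all entries, against 0.06 with TMM.

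rno-miR-24-2-5p, the matching passenger strand of the miR-23a cluster, was not called. It ran from 76.4 to 248 CPM in young AL rats (median 118) and from 57.4 to 163 CPM in old AL rats (median 77.1), and 3 of 6 old AL values were under the whole young AL range. The log2 fold change was -0.63, with an SE of 0.280 (edgeR adjusted p = 0.203). It rested in part on young AL replicate 4, the highest library at 248 CPM, and was -0.40 without it (edgeR adjusted p = 0.374). Without replicate 7 it was -0.88 (SE 0.271, edgeR adjusted p = 0.0988).

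The main strand rno-miR-24-3p ran from 1152 to 1679 CPM in young AL rats (median 1360.4) and from 979 to 1744 CPM in old AL rats (median 1095). In old AL rats 4 values were under the whole young AL range and 1, replicate 7, was above it. Its log2 fold change was -0.20 (SE 0.139, edgeR adjusted p = 0.415), or -0.33 without replicate 7 (edgeR adjusted p = 0.142).

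Neither miR-23 nor miR-27 was called with age. rno-miR-23a-3p ran from 457 to 615 CPM in young AL rats (median 508) and from 478 to 847 CPM in old AL rats (median 556), a log2 fold change of 0.18 (SE 0.129) that was 0.07 without replicate 7. The highest of its old AL values was again replicate 7, and the other 5 lay within the young range. rno-miR-23b-3p varied little within either group, with 606 to 745 CPM in young AL rats (median 697) and 547 to 710 CPM in old AL rats (median 671), a log2 fold change of -0.08 (SE 0.108). The most abundant member, rno-miR-27b-3p, ran from 3232 to 4223 CPM (median 3828) and from 2626 to 5008 CPM (median 4003), with a log2 fold change of 0.09 (SE 0.158) and old AL libraries on both sides of the young range. rno-miR-27a-3p ran from 538 to 1162 CPM (median 732) and from 496 to 896 CPM (median 648), a log2 fold change of -0.23 (SE 0.172). The adjusted p of these 4 members was 0.415, 0.745, 0.812 and 0.461 from edgeR, in the order given. Without replicate 7 the last 3 had log2 fold changes of -0.11, 0.09 and -0.34. A p that misses the threshold does not show that their levels were alike.

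**Figure D2:**
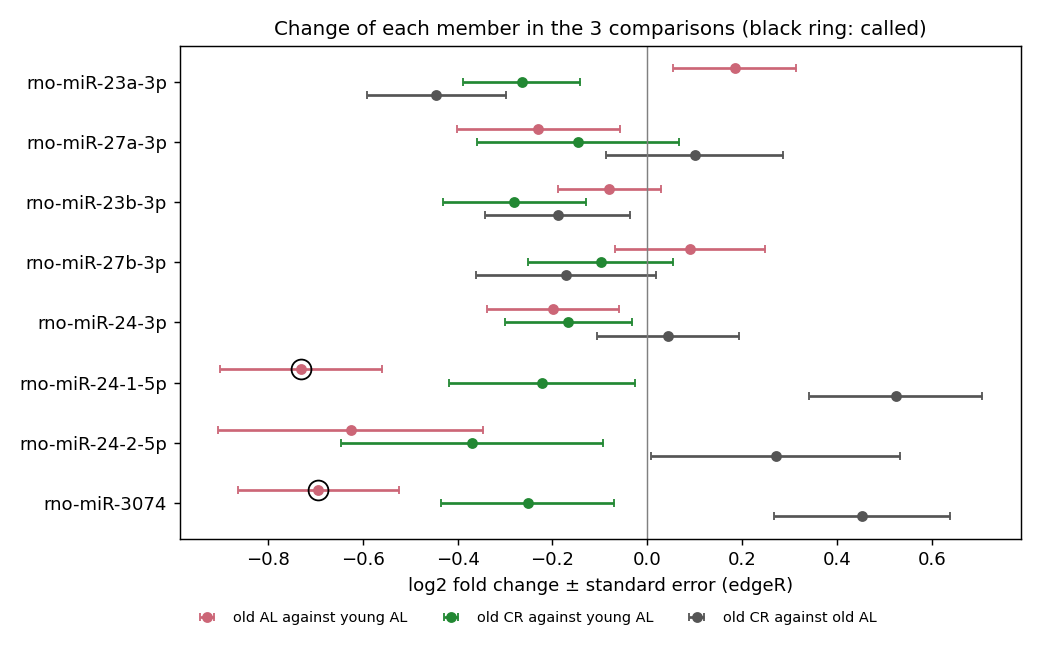
Log2 fold change from edgeR with its SE (horizontal axis) for each of the 8 entries (vertical axis) in the 3 comparisons, in colour. Black rings mark the calls, rno-miR-24-1-5p at -0.73 and rno-miR-3074 at -0.69 in old AL against young AL rats.

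The comparison of old CR with young AL rats set restricted old age beside unrestricted youth, and it shares the young AL libraries with the comparison above. edgeR called 0 of the 8 members, with 0 at an unadjusted p under 0.05 (25.5% of all entries), and DESeq2 called 0. Over the whole table edgeR called 9.32% of 730 entries and DESeq2 14.9%, and 5.07% did not overlap between the groups, against 0 members. The fitted log2 fold change was below 0 in 8 of 8 members with a median of -0.24, against a median of 0.08 over all entries. Without young AL replicate 4 the median of the members was -0.11, with 7 of 8 below 0 and rno-miR-27a-3p at 0.0044, and without old CR replicate 15 it was -0.15.

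The lowest p among the members belonged to rno-miR-23a-3p, which ran from 351 to 540 CPM in old CR rats (median 429), with 4 of 6 libraries below every young AL library. Its log2 fold change was -0.26 (SE 0.123, edgeR adjusted p = 0.199). rno-miR-23b-3p, with the same seed, ran from 390 to 689 CPM in old CR rats (median 597), with 3 of 6 values under the whole young AL range and all 6 below the young median. Its log2 fold change was -0.28 (SE 0.151, edgeR adjusted p = 0.261).

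rno-miR-24-1-5p ran from 8.98 to 15.4 CPM in old CR rats (median 12.8), and rno-miR-3074 from 8.69 to 14.6 CPM (median 11.9). In each, 2 of 6 old CR values were under the whole young AL range and the rest lay inside it, against 5 of 6 old AL values under that range. Their log2 fold changes against young AL rats were -0.22 (SE 0.195) and -0.25 (SE 0.183). rno-miR-24-2-5p ran from 66.1 to 135 CPM in old CR rats (median 119), close to the young median, with a log2 fold change of -0.37 (SE 0.277). Without young AL replicate 4 that of rno-miR-24-2-5p was -0.11, that of rno-miR-24-1-5p -0.11 and that of rno-miR-3074 -0.17. The values of the remaining main strands were spread in and around the young range. rno-miR-24-3p ran from 1015 to 1538 CPM in old CR rats (median 1182), rno-miR-27a-3p from 460 to 879 CPM (median 770.1) and rno-miR-27b-3p from 2562 to 4925 CPM (median 3522), with log2 fold changes of -0.17, -0.15 and -0.10.

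The comparison of old CR with old AL rats addressed diet at the same age, and it shares both old groups with the comparisons above. edgeR called 0 of the 8 members and DESeq2 called 0, with 3 members at an unadjusted p under 0.05 from edgeR, against 88 of 736 entries (12.0%). Over the whole table edgeR called 0.272% of 736 entries and DESeq2 2.58%, and 0.543% did not overlap between the groups, against 0 members.

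The 3 members were rno-miR-24-1-5p, rno-miR-3074 and rno-miR-23a-3p, for which edgeR gave an adjusted p of 0.392. The first 2 have nearly the same counts and are not independent of each other. All 6 old CR libraries lay above the old AL median for rno-miR-24-1-5p and for rno-miR-3074, and 3 and 2 of them lay above every old AL library. The log2 fold changes were 0.52 (SE 0.183) and 0.45 (SE 0.186), or 0.63 and 0.58 without replicate 7. rno-miR-23a-3p went the other way, with all 6 old CR libraries below the old AL median and 4 below every old AL library, a log2 fold change of -0.45 (SE 0.147) that was -0.34 without replicate 7. For rno-miR-24-2-5p the log2 fold change was 0.27 (SE 0.262), and 0.51 without replicate 7. The other 4 members had log2 fold changes between -0.19 and 0.10, and between -0.19 and 0.19 without replicate 7.

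Ratios of 2 counts within a library need no scaling between libraries, and 12 of them were tested in the 3 comparisons by an exact two-sided permutation test over all arrangements of 6 against 6 libraries, adjusted over the 36 tests. None passed an adjusted p of 0.05, and 1, 1 and 2 ratios had an unadjusted p under 0.05 in old AL against young AL, old CR against young AL and old CR against old AL rats. The smallest exact permutation p with 6 against 6 libraries is 0.00216. Over 36 tests, a single ratio at that value reaches an adjusted p of 0.0779, so no ratio could pass by itself. The absence of a pass therefore does not show that the ratios were alike. The lowest p belonged to rno-miR-24-3p over rno-miR-24-1-5p, the main strand of miR-24 set beside the passenger strand of the miR-23b cluster. For each passenger count, young AL libraries held 83.9 to 108 counts of the main strand (median 94.9). Old AL libraries held 127 to 142 (median 137), and old CR libraries held 83.1 to 129.6 (median 97.6). The old AL libraries formed a narrow band above all young AL libraries, and replicate 7 was inside that band. Old CR libraries lay across the young range, apart from replicate 15, which reached the old AL band.

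The mean log2 ratios of young AL, old AL and old CR rats were 6.58 ± 0.155, 7.09 ± 0.0588 and 6.63 ± 0.222 (SD, n = 6 each). Old AL exceeded young AL rats by 0.51 (exact permutation p = 0.00216, the smallest this design can give, adjusted p = 0.0779). Old CR lay below old AL rats by 0.46 on the log2 scale, a difference of -0.46 (exact permutation p = 0.00433, adjusted p = 0.0779). With single libraries left out, the adjusted p of this difference ran from 0.0390 to 0.117 from the exact permutation test. The lowest was without old CR replicate 15, where the difference was -0.54, and that library was singled out after seeing the data. Without old AL replicate 7 the differences from young AL and old CR rats were 0.50 and -0.45 (old CR minus old AL), each with an adjusted p of 0.0779 from the exact permutation test. Old CR and young AL rats differed by 0.05 (exact permutation p = 0.656). Since the main strand comes from both clusters, this ratio is not that of the strands of one hairpin.

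**Figure D3:**
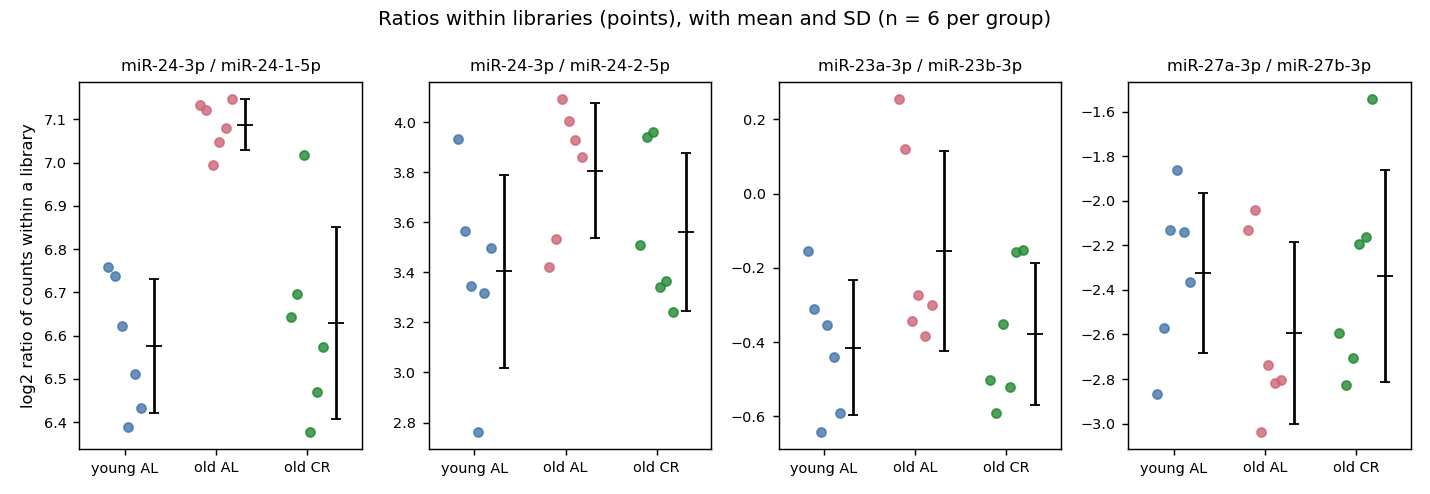
Log2 ratio of counts within each library (vertical axes, which do not start at 0) for 4 pairs of members in young AL, old AL and old CR rats (horizontal axis), with 1 point per library and the mean and SD of 6 libraries. In the miR-24-3p over miR-24-1-5p panel the 6 old AL points sit between 6.99 and 7.15, above all young AL points, while in the other 3 panels the groups overlap.

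The same main strand over rno-miR-24-2-5p, the passenger strand of the miR-23a cluster, gave 6.78 to 15.3 in young AL rats, with a median of 10.7. Old AL rats had 10.7 to 17.1 (median 14.9), and old CR rats had 9.46 to 15.6 (median 10.8). The order of the groups was as for the other passenger strand, with wide overlap (old AL minus young AL 0.40 on the log2 scale, exact permutation p = 0.0584, adjusted p = 0.346). rno-miR-24-2-5p had medians of 9.08, 9.32 and 8.47 counts for each count of rno-miR-24-1-5p, in the same order of groups, and none of the 3 differences passed the test (exact permutation p of 0.188 or higher).

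The paralogous main strands were compared in the same way. rno-miR-23a-3p had medians of 0.760, 0.819 and 0.745 counts for each count of rno-miR-23b-3p in the young AL, old AL and old CR groups. It exceeded rno-miR-23b-3p in 2 old AL libraries alone, replicates 7 and 8. The paralogues of miR-27 were less even, with medians of 0.210, 0.147 and 0.192 counts of rno-miR-27a-3p for each count of rno-miR-27b-3p. Within the miR-23b cluster rno-miR-23b-3p stood at 0.184, 0.172 and 0.150 of rno-miR-27b-3p, and within the miR-23a cluster rno-miR-23a-3p stood at 0.695, 0.935 and 0.590 of rno-miR-27a-3p. The largest group difference among these 4 ratios was that of rno-miR-23a-3p over rno-miR-27a-3p in old CR against old AL rats, at -0.52 on the log2 scale (exact permutation p = 0.0758, adjusted p = 0.346).

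The passenger strands of miR-23 and miR-27 were set beside their main strands. rno-miR-23a-5p had 1 to 36 counts per library (0.0230 to 0.354 CPM) and rno-miR-23b-5p 15 to 92 counts (0.330 to 0.904 CPM), so their ratios rest on few passenger counts. rno-miR-27a-5p ran from 7.08 to 22.7 CPM and rno-miR-27b-5p from 4.57 to 8.80 CPM. The strand bias differed between the miR-27 paralogues in every library, with medians of 47.5, 59.9 and 67.2 counts of rno-miR-27a-3p for each count of its passenger in young AL, old AL and old CR rats, against 599, 577 and 546 for miR-27b. Over all libraries the ranges were 35.1 to 124 and 345 to 897, without overlap. For miR-23b the medians were 1149, 1155 and 889.6, and the ratio in old CR rats was -0.44 from young AL rats (exact permutation p = 0.0325, adjusted p = 0.346) and -0.42 from old AL rats (exact permutation p = 0.0476, adjusted p = 0.346) on the log2 scale. edgeR and DESeq2 each called 0 of these 4 passenger strands in every comparison, with 0 at an unadjusted p under 0.05 from edgeR. Over all entries edgeR called 3.28, 9.32 and 0.272% in old AL against young AL, old CR against young AL and old CR against old AL rats. DESeq2 called 11.5, 14.9 and 2.58%, and 23.4, 25.5 and 12.0% had an unadjusted p under 0.05 from edgeR.

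The counts of rno-miR-3074 and rno-miR-24-1-5p were nearly the same. They lay within 10%, or 2 counts, of each other in 16 of 18 libraries, and rno-miR-3074 had 88.3 to 102.6% of the counts of rno-miR-24-1-5p. The correlation of their log2 CPM was 0.99 over 18 libraries. The ratio did not pass the test in any comparison, with medians of 0.968, 0.976 and 0.936 in young AL, old AL and old CR rats. The sequences are complementary and not identical, so a read with known strand belongs to one or the other. Whether the authors' counting kept strand is unknown. If it did not, reads of the miR-24-1 and miR-3074 hairpins may have been counted for both entries. The deposited counts alone cannot show whether this happened. With counts this close, the falls of both entries with age cannot be taken as independent of each other. Predicted candidates ran beside other members in the same way. One had 96.1 to 97.3% of the counts of rno-miR-23b-3p in 18 libraries, and another had 98.7 to 99.0% of those of rno-miR-27b-3p in the 13 libraries in which it was counted.

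**Figure D4:**
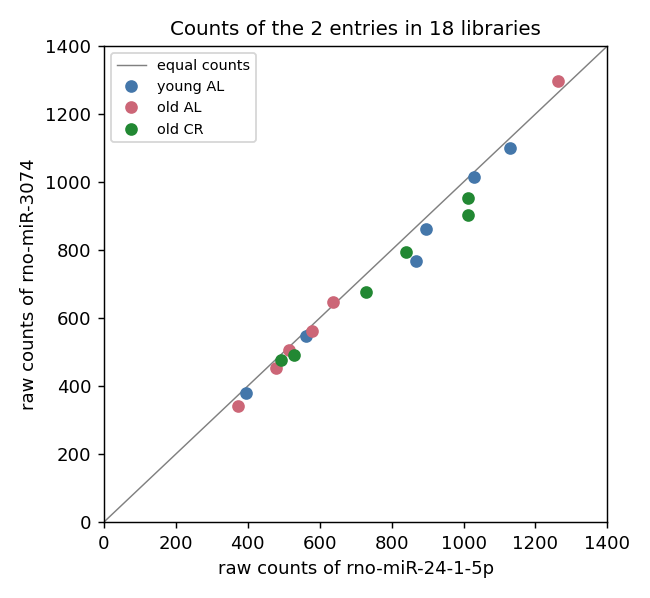
Raw counts of rno-miR-3074 (vertical axis) against those of rno-miR-24-1-5p (horizontal axis) in 18 libraries, with the line of equal counts and 1 point per library coloured by group. The points of all 3 groups lie along the line, between 343 and 1296 counts of rno-miR-3074.

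Levels of cluster mates did not all run together across the 18 libraries. The correlations are Pearson's r of log2 CPM, described without a test, and the libraries share one TMM scaling. In the miR-23a cluster rno-miR-27a-3p and rno-miR-24-2-5p had an r of 0.89 (0.90 with group means removed), while rno-miR-27a-3p and rno-miR-23a-3p had an r of -0.12 (-0.10 with group means removed). In the miR-23b cluster rno-miR-23b-3p and rno-miR-27b-3p had an r of 0.58, and rno-miR-24-1-5p had an r of 0.06 with rno-miR-27b-3p. Across clusters rno-miR-23a-3p and rno-miR-23b-3p, which differ by 1 base, had an r of 0.60, and the passenger strands rno-miR-24-1-5p and rno-miR-24-2-5p had an r of 0.88. rno-miR-24-3p had an r of 0.88 with rno-miR-24-2-5p and 0.78 with rno-miR-24-1-5p. The miR-27 paralogues had an r of 0.11. Without old AL replicate 7, left out after seeing the data, the r of rno-miR-27a-3p with rno-miR-23a-3p was -0.40 and that of rno-miR-24-3p with rno-miR-24-1-5p 0.87, and the other r values named here moved by less.

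**Figure D5:**
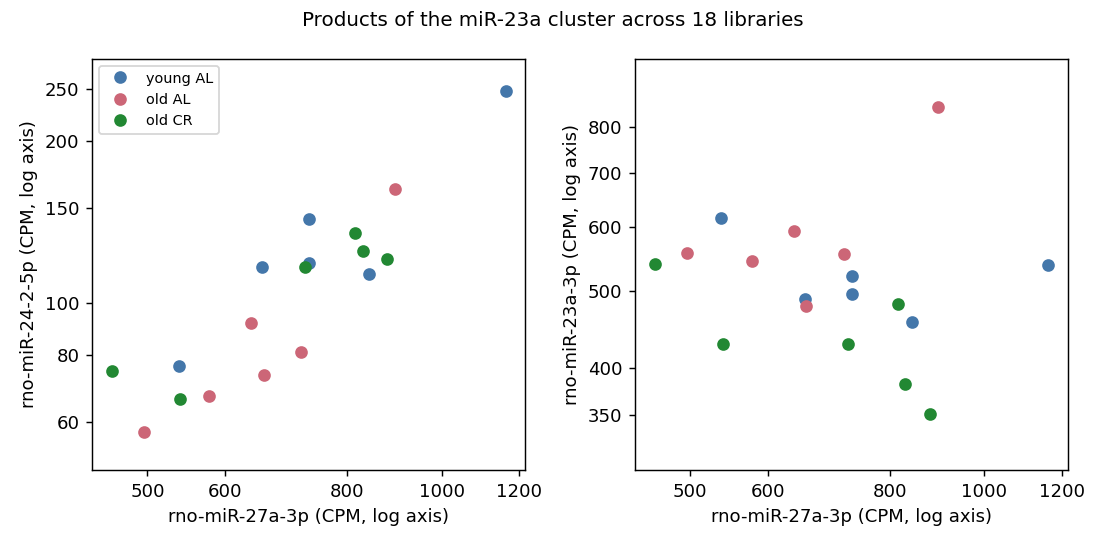
Levels of rno-miR-24-2-5p (left panel) and rno-miR-23a-3p (right panel) against rno-miR-27a-3p in CPM, on log axes that do not start at 0, with 1 point per library coloured by group. The left points rise along a line (r of 0.89), and the right points show no such line (r of -0.12).

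Among the 161 known miRNAs outside the clusters with at least 10 CPM on average, the 3 with the highest r were named for 4 of the members, so each r is the top of many. For rno-miR-24-3p they were rno-miR-208b-3p (r 0.92, Spearman's rho 0.88), rno-miR-499-5p (r 0.85, rho 0.80) and rno-miR-206-3p (r 0.80, rho 0.71), the first pair encoded within slow myosin heavy chain genes and the last muscle-specific. Without the 2 libraries farthest from the median of the partner, r was 0.86, 0.69 and 0.79. rno-miR-208b-3p also led for rno-miR-24-2-5p (r 0.92), ahead of rno-miR-126a-3p (r 0.77), an endothelial miRNA, and rno-miR-140-5p (r 0.76). For rno-miR-27a-3p the leaders were rno-miR-140-5p (r 0.90), a cartilage miRNA, rno-miR-208b-3p (r 0.79) and rno-miR-450b-5p (r 0.77). rno-miR-23b-3p had rno-miR-125b-5p (r 0.70), rno-miR-3588 (r 0.70) and rno-miR-181a-2-3p (r 0.67). The first pair are not independent neighbours, since rno-miR-3588 had 99.4 to 99.8% of the counts of rno-miR-125b-5p in the 18 libraries.

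rno-miR-208b-3p, a marker of slow fibres, had medians of 7.86, 4.45 and 5.67 CPM in the young AL, old AL and old CR groups, with a highest old CR value of 16.0 CPM. Its highest values, 60.7 CPM in young AL replicate 4 and 31.4 CPM in old AL replicate 7, fell in the libraries with the highest rno-miR-24-2-5p of their groups, 248 and 163 CPM. It was not called in old AL against young AL rats (log2 fold change -1.04 with an SE of 0.821, edgeR adjusted p = 0.491), and the part of slow fibre content in the levels of miR-24 was not tested.

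A list of 12 miRNAs tied to muscle mass and identity was set beside the members. In old AL against young AL rats edgeR called 2 of 12, with rno-miR-182, a miRNA that represses the atrophy regulator FoxO3, upregulated (log2 fold change 1.15 with an SE of 0.278, edgeR adjusted p = 0.0440) and rno-miR-22-3p, a miRNA abundant in heart and skeletal muscle, downregulated (log2 fold change -0.59 with an SE of 0.134, edgeR adjusted p = 0.0353). Of all entries edgeR called 3.28% in that comparison. There 4 of the 12 had an unadjusted p under 0.05 from edgeR, against 23.4% of all entries. DESeq2 called 3 of the 12, against 11.5% of all entries, the third being rno-miR-29b-3p (log2 fold change 0.69 from edgeR). In old CR against young AL rats edgeR called 0 of 12, against 9.32% of all entries. There 3 had an unadjusted p under 0.05 from edgeR, against 25.5%, and DESeq2 called 1, against 14.9%. In old CR against old AL rats edgeR called 0 of 12, against 0.272% of all entries. There 0 had an unadjusted p under 0.05 from edgeR, against 12.0%, and DESeq2 called 0, against 2.58%. The list's median log2 fold changes were 0.13, 0.15 and -0.11, against -0.21, -0.24 and 0.07 for the members and 0.06, 0.08 and 0.01 for all entries. With 1 library left out the median of the members ran from -0.33 (without replicate 7) to -0.13 (without replicate 4) with age, and from 0.0045 (without replicate 13) to 0.18 (without replicate 7) in old CR against old AL rats.

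Markers of other cell types were also followed, since vessels hold much miR-23, miR-27 and miR-24. Of all entries, 23.4, 25.5 and 12.0% had an unadjusted p under 0.05 from edgeR in the 3 comparisons, in the order used above. edgeR called 3.28, 9.32 and 0.272% of all entries, and DESeq2 11.5, 14.9 and 2.58%. The 6 endothelial and vascular wall miRNAs summed to 10112 to 18266 CPM in the young AL group, 8744 to 17373 CPM with age and 8854 to 15364 CPM with age and CR, with median log2 fold changes of -0.07, -0.18 and 0.04 in the 3 comparisons. edgeR and DESeq2 called 0 of 6 in each, with 0 at an unadjusted p under 0.05. The 5 leukocyte miRNAs summed to 123 to 169.9, 109 to 606 and 114 to 238 CPM in the same order, and edgeR called 0 of 5 in each comparison (2, 0 and 0 at an unadjusted p under 0.05, 0 called by DESeq2). The sums of 606 and 238 CPM belonged to old AL replicate 8 and old CR replicate 18. These had 11612 and 4021 counts of rno-miR-142-5p, against 520 to 994 and 220 to 611 in the other libraries of their groups. The 2 liver miRNAs of the miR-122 hairpin summed to 0.549 to 39.4, 49.4 to 774 and 102 to 186 CPM, and edgeR called both upregulated in old CR against young AL rats, 0 in old AL against young AL rats (2 at an unadjusted p under 0.05, 2 called by DESeq2) and 0 in old CR against old AL rats (0 and 0). Of the 5 nerve miRNAs edgeR called 4 upregulated in old CR against young AL rats, 0 with age (5 at an unadjusted p under 0.05, 1 called by DESeq2) and 0 between the old groups (4 and 3). All the called ones were highest in old CR replicates 17 and 18. There rno-miR-9a-5p had 7833 and 7128 counts, against 968 to 2591 in the other old CR libraries (group mean 59.1 with an SD of 48.4 CPM). The nerve list did not move as one, since rno-miR-128-3p, its most abundant member, had log2 fold changes of -0.56 with age (edgeR adjusted p = 0.127) and -0.46 in old CR against young AL rats (edgeR adjusted p = 0.203), where the other 4 were above 0. Of the 3 erythroid and the 3 tested fibroblast miRNAs edgeR called 0 in any comparison, with 1, 0 and 1 erythroid and 0 fibroblast miRNAs at an unadjusted p under 0.05, and DESeq2 called 1 erythroid miRNA, in old AL against young AL rats. None of the listed markers was at 0 in all libraries, and their part in the members' levels was not tested.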

How the data were processed

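Small RNA-seq of gastrocnemius muscle from 18 rats (6 each of young AL, old AL and old CR) was analysed from the deposited table. The authors trimmed reads with Cutadapt 1.2.1 and Sickle, identified known and candidate miRNAs with miRDeep2, and deposited raw counts per entry, attributed in the methods to featureCount. The submitters' processing notes also name Bowtie2 2.4.0 and the build Rnor_6.0. The strand setting, the miRBase release and the treatment of reads matching several entries are not stated in the sources used here, so counts of near-identical or complementary miRNAs may be shared. Sequences, hairpin neighbours and overlaps come from RefSeq GRCr8, another build, so no positions are given. All 8 members matched there by name. No count column was left unused (0).

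Counts scaled by TMM entered edgeR 4.0.16 under R 4.3.3 (quasi-likelihood test, robust, 12 libraries per comparison, group as the only term) on entries with at least 10 counts in total, with Benjamini-Hochberg adjustment over all of them. The standard error is the size of the log2 fold change divided by the square root of F. DESeq2 1.42.0 was an alternative. All tests are two-sided. CPM used TMM factors over the 18 libraries, and log2 CPM and ratios a prior count of 0.5. Ratios were tested by exact permutation in Python 3.11.15. Totals of 34940346 to 83110905 counts gave at least 343 counts per library to each member. Over all entries together, the chi-square of any replicate pair was at least 1214 times its degrees of freedom. That value covers the whole table, so it does not show how counting error compares with the spread between rats for members with few counts. Scripts were tested on simulated data. No batch is given in the labels.

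The members, lists and tests were chosen with earlier results of these data known. The named miRNAs are the members, the 4 passenger strands of the same hairpins, the 3 best correlated miRNAs of 4 members, entries with shared counts and the lists. Alternatives were RLE and upper-quartile factors, library totals with and without the miR-1 family, DESeq2 with 2 settings, other filters, a single fit of 3 groups, no robust estimation, known miRNAs only, a prior count of 5, medians, each library left out, and both of young AL replicates 1 and 2 left out, since their library numbers are separate from the rest.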

Additional observations from a re-analysis of the deposited data

Results flagged for a closer look

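Of 60 groups of 6 libraries examined for a library far from the other 5 (the members' CPM and the log2 ratios), 7 had one. Chance gives about 1 in 20 for independent groups. These groups share libraries, scaling and counts, so 7 of 60 cannot be read as an excess over that rate. Old AL replicate 7 was the far library in 5 of the 7, always as the highest. It had 847 CPM of rno-miR-23a-3p (the other old AL libraries 478 to 594), 1744 CPM of rno-miR-24-3p (979 to 1177), 12.4 CPM of rno-miR-24-1-5p (7.63 to 8.30), 163 CPM of rno-miR-24-2-5p (57.4 to 91.8) and 12.7 CPM of rno-miR-3074 (7.23 to 8.14). This library also had the largest TMM factor, 2.08, and the smallest share of the miR-1 family, 60.7%, and their part in its levels was not tested.

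The other 2 were ratios. In young AL replicate 4 the log2 ratio of rno-miR-3074 over rno-miR-24-1-5p was -0.18, and the other young AL libraries lay between -0.06 and -0.02. In old CR replicate 15 the log2 ratio of rno-miR-27b-3p over rno-miR-27b-5p was 8.43, below the 8.98 to 9.15 of the other old CR libraries.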

How the results depend on the processing

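In old AL against young AL rats the 2 members called became 1 with upper-quartile factors, without robust estimation and without young AL replicates 1 and 2 together, each time rno-miR-24-1-5p. They became 0 with RLE factors, library totals alone, library totals without the miR-1 family and no filter, and with each of replicates 2 to 6 and 8 to 12 left out (0 to 2 over the libraries left out). Both were called in the other settings (DESeq2 with either setting, filterByExpr, a single fit of 3 groups, known miRNAs only). The direction of both was kept in all of them, and the cause of the lost calls was not tested. The other comparisons kept 0 members called. Over all entries, 24 calls with age became 0 with library totals alone, 13 with totals without the miR-1 family, 37 with filterByExpr, 38 with a single fit, 53 with known miRNAs only, 84 with DESeq2 (99 without its filters) and 9 to 20 with 1 library left out. The 68 calls of old CR against young AL rats became 109 with DESeq2 (129 without its filters) and 45 without replicate 18, and the 2 of old CR against old AL rats became 0 to 22. Library totals alone moved the median log2 fold change of all entries from 0.06 to 0.23 with age and from 0.01 to -0.27 in old CR against old AL rats. Directions then turned, with age to 0.051 for rno-miR-23b-3p and 0.037 for rno-miR-24-3p, and in old CR against old AL rats to -0.25 for rno-miR-27a-3p, -0.34 for rno-miR-24-3p and -0.21 for rno-miR-24-2-5p. In this last comparison rno-miR-27a-3p and rno-miR-24-3p also turned to -0.025 and -0.055 with upper-quartile factors and to -0.041 and -0.11 without the miR-1 family in the totals, and rno-miR-24-3p to -0.0055 with filterByExpr. None of these turned values had been called.

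For ratios, 0 to 1 passed the adjusted threshold in old CR against old AL rats with 1 library left out (1 without replicate 15). Turned log2 differences in old AL against young AL rats were 0.085 for miR-23a-3p/23a-5p and 0.0095 for miR-23b-3p/23b-5p with a prior count of 5, 0.00813 for miR-23b-3p/23b-5p and -0.054 for miR-27b-3p/27b-5p with medians, and -0.059 for the latter without young AL replicates 1 and 2. In old CR against young AL rats they were -0.030 for miR-23a-3p/23b-3p with medians and 0.084 for miR-23a-3p/27a-3p without young AL replicates 1 and 2. With single libraries left out, values that crossed 0 ran in old AL against young AL rats from -0.53 to 0.13 (miR-23a-3p/23a-5p), -0.13 to 0.11 (miR-23b-3p/23b-5p) and -0.094 to 0.11 (miR-27b-3p/27b-5p). In old CR against young AL rats they ran from -0.24 to 0.0044 for rno-miR-27a-3p, and for ratios from -0.0089 to 0.089 (miR-23a-3p/23b-3p), -0.17 to 0.083 (miR-27a-3p/27b-3p), -0.023 to 0.10 (miR-24-3p/24-1-5p), -0.033 to 0.62 (miR-23a-3p/23a-5p) and -0.31 to 0.017 (miR-23a-3p/27a-3p). In old CR against old AL rats they ran from -0.040 to 0.16 for rno-miR-24-3p, -0.0050 to 0.36 for miR-27a-3p/27a-5p and -0.14 to 0.026 for miR-23b-3p/27b-3p. No paired analysis was possible because replicate numbers 1 to 18 are not shared between groups. Depth limits rno-miR-23a-5p and rno-miR-23b-5p, at 1 to 36 and 15 to 92 counts per library.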
